A study of Mus musculus with 5 samples.

Results

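The Pbx genes Pbx2, Pbx3 and Pbx4 and the Tgif genes Tgif1 and Tgif2 were followed across 5 RNA-seq libraries of mouse embryonic fibroblasts (MEFs, connective-tissue cells grown from embryos). The members were the loci named for these 5 genes, 5 loci of 61082. Pbx3, Pbx4, Tgif1 and Tgif2 each had a locus of their own, whereas Pbx2 stood in a locus joined with Ager. Ager encodes the receptor for advanced glycation end products and is the next gene beside Pbx2 in the RefSeq annotation of GRCm38, so the Pbx2 value includes any Ager transcript.

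Each group held 1 library. EV came from MEFs of Prep1-hypomorphic embryos, whose Prep1 gene is expressed at a reduced level, after infection with an empty vector. M came from hypomorphic MEFs labelled as overexpressing Meis1. P is labelled as overexpressing Prep1 in such cells and MP as overexpressing both, which the level of the Prep1 gene below does not bear out. WT came from MEFs labelled wild-type for Prep1, with no vector named. All were on the C57BL/6 background at passage 30, and the growth protocol describes cells from E14.5 (mid-gestation) embryos. That protocol names hypomorphic embryos for WT as well, against its genotype label. The sources used here do not say whether a line is 1 clone. A group of 1 library leaves differences without a replicate check, so no p-value is given and what is compared is libraries, not conditions.

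Pbx, Meis, Prep and Tgif proteins are homeodomain transcription factors of the TALE class, named for an extra loop in the homeodomain. Pbx proteins bind DNA as dimers with Hox, Meis or Prep proteins, and Meis and Prep partners hold Pbx in the nucleus. Tgif proteins recognise sites close to those of Meis and Prep, and act as repressors that restrain Smad proteins of TGF-beta signalling and retinoid receptors.

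Promoters from 250 bases before to 50 after the start of a gene (RefSeq, GRCm38.p6) were at hand for 4 of the 5 members. There were 5 starts for Tgif1 and 1 each for Pbx2, Pbx4 and Tgif2, whereas the sources used here held no promoter entry for Pbx3. Pbx4, the member whose level differed most between libraries, is shown with a start of Tgif1, the member with the smallest range. Both are written 5′ to 3′ on the strand of the gene, Pbx4 at chr8:69832374-69832673 (plus strand) and Tgif1 at chr17:70851161-70851460 (minus strand). Capitals mark matches on either strand to TGACAG, the half-site of Meis and Prep, to TGATNNAT, a Pbx and Hox composite site, to TGANTCA, the AP-1 site, or to CCAAT, the CCAAT box.
Pbx4: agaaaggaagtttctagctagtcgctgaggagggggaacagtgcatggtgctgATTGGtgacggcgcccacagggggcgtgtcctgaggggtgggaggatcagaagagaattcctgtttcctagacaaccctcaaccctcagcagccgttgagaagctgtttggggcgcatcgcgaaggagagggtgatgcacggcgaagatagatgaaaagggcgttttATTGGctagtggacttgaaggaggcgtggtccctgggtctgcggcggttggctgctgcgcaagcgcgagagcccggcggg
Tgif1: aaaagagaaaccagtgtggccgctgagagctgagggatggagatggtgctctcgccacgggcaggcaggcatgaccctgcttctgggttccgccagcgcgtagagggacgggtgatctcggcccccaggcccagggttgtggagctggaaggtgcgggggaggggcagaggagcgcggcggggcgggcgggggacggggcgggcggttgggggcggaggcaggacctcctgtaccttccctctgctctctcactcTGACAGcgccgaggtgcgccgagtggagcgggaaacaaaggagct

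The Pbx4 promoter held 2 matches to CCAAT and none to the other motifs. The Tgif1 promoter shown held 1 match to TGACAG. Of the other Tgif1 starts, 1 held TGACAG, 1 held TGATNNAT and 1 held CCAAT, and the promoters of Pbx2 and Tgif2 held none of the 4 motifs. Among all 32851 promoters of that length, 19.2% held TGACAG, 8.85% TGATNNAT, 7.81% TGANTCA and 37.4% CCAAT. These matches are letters in a window, and binding was not measured here.

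The deposited values are FPKM, which count fragments per length of transcript and relative to all mapped fragments. They lay far higher in EV and M than in the other libraries, with an upper quartile of 157 FPKM in EV, 429 in M and 11.6 in P, with 9.63 in MP and 12.2 in WT. Levels below are therefore scaled units, FPKM after the upper quartile of each library was set to 10. The scaled values were compressed at the top, with the 99th percentile of genes at 21.0 in EV and 17.5 in WT, so differences between well expressed genes are understated. Read depth is unknown. All 7 fibroblast markers measured stood at 5 scaled units or more in every library. None of 6 epithelial, 4 endothelial or 3 blood and macrophage markers reached 5 in any library, whereas the actin gene Acta1 of 4 skeletal muscle markers (5.10 in P) and Tubb3 and Map2 of 4 neuron and glia markers did.

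The labels were checked at the added genes. For Meis1, EV held 8.32 scaled units and P 8.86, WT held 12.4, and the highest levels were 15.4 in MP and 16.8 in M. For Pknox1, which encodes Prep1, P held 0.554 scaled units and MP 0.569, below EV (2.16) and M (3.25), and WT held 11.0. The labels P and MP are thus not borne out by Pknox1, which limits all directions given below for the library labelled P and the library labelled MP. Whether transcript of an added construct would be counted at the Pknox1 locus could not be checked.

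Of the 5 members, 4 had a highest scaled level at most 1.29 times the lowest, and the low gene Pbx4 6.30 times. Among genes whose highest level was 1 to 5, as it was for Pbx4, 65.7% had a smaller range. Directions of differences as small as those of these 4 depend on the scaling, since scaling the libraries to their medians in place of their upper quartiles moved the middle of all well expressed genes (5 or more in either library) to a log2 ratio of 0.38 in MP and -0.41 in WT against EV. Within each library the order of scaled levels was Tgif1 first, then the Pbx2 locus and Pbx3, then Tgif2, then Pbx4. Across libraries the levels of the Pbx2 locus (10.0 to 12.9 scaled units) and Pbx3 (10.5 to 12.0) overlapped, so these neighbours in the order did not differ beyond their spread. The other neighbours did not overlap.

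**Figure D1:**
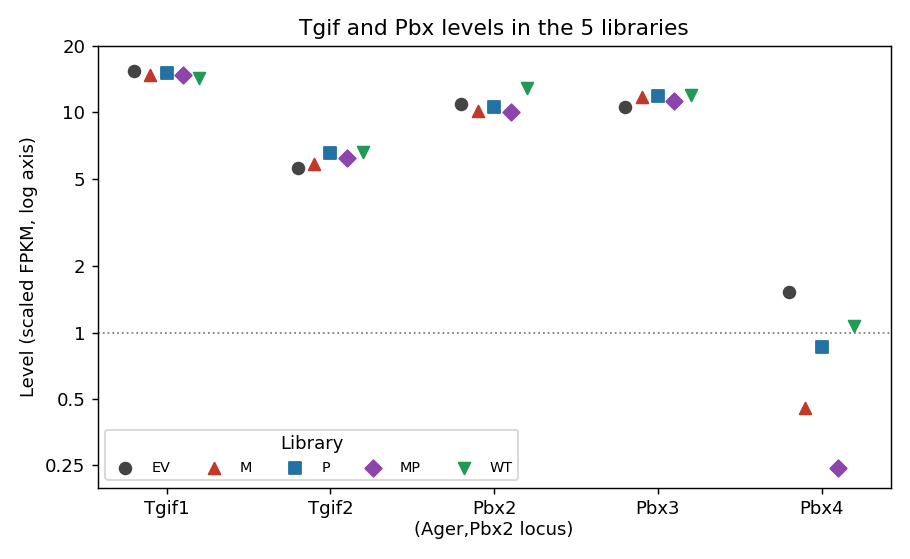
Scaled FPKM (log axis) of the 5 genes, 1 point for each of the 5 libraries, with the filter at 1 scaled unit dotted. Tgif1, Tgif2, the Pbx2 locus and Pbx3 each fall in a narrow band, whereas Pbx4 spreads from 0.244 in MP to 1.54 in EV.

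Tgif1, a repressor of Smad-dependent transcription, stood at 15.4 scaled units in EV, 14.7 in M and 15.0 in P, with 14.8 in MP and 14.2 in WT. EV was highest and WT lowest, 1.08-fold apart. Its rank lay between percentile 92.0 of single-gene loci (EV) and percentile 96.8 (P). On the scale of log2((level + 1)/(level + 1)), used for every ratio below and which understates changes of low genes, Tgif1 stood at -0.06 in M and -0.03 in P, with -0.05 in MP and -0.10 in WT against EV. These directions turned with the scaling: P stood at 0.17 and WT at 0.15 after quantile normalisation, M at 0.01, and MP at 0.36 with libraries scaled to their medians. Relative to the median over genes reaching 5 in either library, these ratios were -0.04 in M and 0.03 in P, with -0.03 in MP and -0.01 in WT.

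Tgif2, the shorter paralogue with the same repressor role, stood at 5.61 scaled units in EV, 5.85 in M and 6.52 in P, with 6.22 in MP and 6.63 in WT. EV and M were the low libraries and P and WT the high ones, with a highest level 1.18 times the lowest. Its log2 ratio to EV was 0.05 in M and 0.19 in P, with 0.13 in MP and 0.21 in WT, the last turning negative, to -0.09 at the lowest, under another scaling of the libraries. The ratio of Tgif1 to Tgif2 within a library does not depend on a scaling factor common to all its genes. It was 2.74 in EV and 2.52 in M, 2.31 in P and 2.38 in MP, and 2.15 in WT. By these values the Tgif pair was least unequal in WT and most unequal in EV. Quantile normalisation, which does not apply a common factor, put WT against EV at 0.15 for Tgif1 and -0.07 for Tgif2. The pair was then more unequal in WT than in EV.

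The locus of Pbx2, a broadly expressed Hox and Meis partner, stood at 10.9 scaled units in EV, 10.1 in M and 10.6 in P, with 10.0 in MP and 12.9 in WT. The hypomorphic libraries lay together and WT lay above each of them. The log2 ratio of WT was 0.22 to EV, 0.26 to P, 0.32 to M and 0.34 to MP, and the ratios to EV and P turned negative (-0.10 and -0.09) with libraries scaled to their medians. Taken relative to the median of genes at 5 or more, WT over EV was 0.32, and between 0.31 and 0.39 under every alternative tried. Subtracting this median removes any factor common to a library, so alternatives that only rescale or filter could hardly move the value. Quantile normalisation, which does not apply a common factor, gave 0.39. By rank the locus stood at percentile 93.0 in WT and between percentiles 75.1 and 77.7 in the hypomorphic libraries. The top of the scaled values was more compressed in WT than in EV, which can lift ranks of well expressed genes there. Tgif1 stood at percentile 92.0 in EV and 96.5 in WT, although its level was lowest in WT. Pbx3 stood at 76.6 in EV and 88.3 in WT, whereas Tgif2 stood at 63.8 and 63.0. The rank in WT is therefore not read as a rise of the Pbx2 locus alone. Genotype, line of origin and infection cannot be told apart between WT and the other libraries.

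Pbx3, a Pbx protein best known from the developing nervous system, stood at 10.5 scaled units in EV, 11.8 in M and 11.9 in P, with 11.2 in MP and 12.0 in WT. EV was the lowest library and the other libraries lay within a narrow band above it. Its log2 ratio to EV was 0.15 in M and 0.16 in P, with 0.08 in MP and 0.17 in WT, the last turning to -0.14 with libraries scaled to their medians. Relative to the median of genes at 5 or more, WT over EV was 0.27, and between 0.27 and 0.32 under every alternative tried. As at the Pbx2 locus, rescaling or filtering could hardly move this value, and quantile normalisation gave 0.32. The ratio of Pbx3 to the Pbx2 locus within a library was 0.963 in EV and 1.16 in M, 1.12 in P and 1.12 in MP, and 0.929 in WT. Pbx3 therefore read above the Pbx2 locus in M, P and MP and below it in EV and WT.

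Pbx4, a Pbx protein known for its expression in testis, stood at 1.54 scaled units in EV, 0.455 in M and 0.863 in P, with 0.244 in MP and 1.07 in WT. The 2 libraries labelled with added Meis1, M and MP, were the lowest, and each of the other libraries lay above both, at 1 value a library. By rank Pbx4 stood at percentile 50.6 in EV and 40.3 in M, 46.9 in P and 41.9 in MP, and 46.4 in WT, with M rather than MP lowest. Without a pseudocount, EV was 6.30 times MP and 3.38 times M. The log2 ratio to EV was -0.80 in M and -0.44 in P, with -1.03 in MP and -0.29 in WT. Pbx3 exceeded Pbx4 within a library by 6.86 times in EV, 25.9 in M and 13.7 in P, with 46.0 in MP and 11.2 in WT.

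The Pbx4 level was read against genes that fibroblasts are not known to use. Olfactory and vomeronasal receptor genes, the odour and pheromone receptors of nasal neurons, had a median of 0.282 scaled units in EV, 0.191 in M and 0 in P, MP and WT over 1422 genes. Their 95th percentile was 0.565 in EV and 0.869 in M, 0.0497 in P and 0.0976 in MP, and 0.0693 in WT. The Pbx4 level exceeded 99.5% of these genes in EV, 99.5% in P, 98.9% in MP and 99.6% in WT, but 83.3% in M. The M value of Pbx4 thus lay inside the range of receptor genes, and the other values lay above their 95th percentile. The summed level of the 6 epithelial markers was also highest in EV, at 3.33, against 1.33 in M and 1.41 in P, with 0.751 in MP and 0.393 in WT, with Epcam at 0 in M, Krt5 at 0 in P and MP, and Krt18 at 0 in WT. Krt8 of that list was higher in P (1.16) than in EV (0.883). The sum of the 4 endothelial markers was 1.74 in EV and 1.25 in M, 1.13 in P and 0.80 in MP, and 0.663 in WT, with none at 0. Other lists differed: the 3 blood and macrophage markers summed to 2.22 in EV, below M (3.68), P (3.58) and MP (3.75). The 4 skeletal muscle markers summed highest in P (5.22) and the 4 neuron and glia markers in WT (28.3). The part of any of these in the Pbx4 differences was not tested. Fewer cells with a transcript and less transcript per cell cannot be told apart in these bulk libraries.

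**Figure D2:**
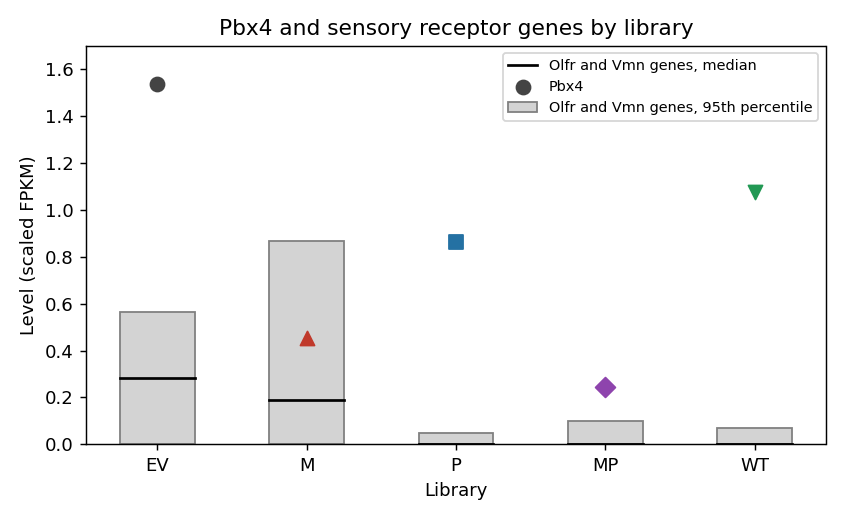
Scaled FPKM of Pbx4 (points) in each library beside the 95th percentile (bars) and median (lines) of 1422 olfactory (Olfr) and vomeronasal (Vmn) receptor genes. Pbx4 lies inside the bar in M only, and the bars of EV and M are higher than those of P, MP and WT.

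M against EV and MP against P are the pairs that differ in added Meis1 by their labels. The labels also give added Prep1 in the second pair, where Pknox1 was lower than in the first. These pairs share no library. Pbx4 was lower in the library labelled with added Meis1 in both, at log2 ratios of -0.80 and -0.58, or 3.38-fold and 3.54-fold without a pseudocount, and it was lower in both under every alternative tried. With a pseudocount of 0.1 the log2 ratios were -1.56 and -1.49. In the first pair the M level lay inside the range of receptor genes. In the second pair both levels were under the filter of 1 scaled unit. Of 2479 genes whose highest level in EV, M, P and MP was 1 to 5, as it was for Pbx4, 39.5% were lower in both pairs. The Pbx2 locus stood at -0.10 and -0.08, Pbx3 at 0.15 and -0.08, Tgif1 at -0.06 and -0.02, and Tgif2 at 0.05 and -0.06. In MP against P these 4 turned positive with libraries scaled to their medians, to 0.29 at the Pbx2 locus, Pbx3 and Tgif2 and 0.35 at Tgif1. With a pseudocount of 1, no member was 2-fold apart in either pair, where 0.924% and 1.01% of all genes kept were.

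By their labels, P against EV and MP against M are the pairs that differ in added Prep1, and they again share no library. Pknox1 was lower, not higher, in both (-1.03 and -1.44), so these pairs do not show added Prep1 at its own gene. Pbx4 stood at -0.44 and -0.23, the second with both levels under the filter, and the second turned to 0.09 after quantile normalisation. Pbx3 stood at 0.16 and -0.06, the Pbx2 locus at -0.04 and -0.01, Tgif1 at -0.03 and 0.01, and Tgif2 at 0.19 and 0.08. Scaling to the medians turned MP against M to 0.29 for Pbx3 and 0.33 for the Pbx2 locus, and gave 0.36 for Tgif1, whereas quantile normalisation turned P against EV to 0.17 for Tgif1. No member was 2-fold apart in either pair, where 2.5% and 1.51% of genes kept were. Tgif2 stood above 0.05 in both pairs and stayed above 0 in both under each scaling of the libraries, but not in the values as deposited without scaling.

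MP against EV, the pair that differs in both factors by its labels, held the single 2-fold difference among the members. Pbx4 stood at 0.244 scaled units in MP and 1.54 in EV (log2 ratio -1.03), just past the threshold of 1 in size. Scaling to the median gave -0.92 and quantile normalisation -0.80, both short of the threshold, and a pseudocount of 0.1 gave -2.25. Of all genes kept, 2.26% were 2-fold apart, 2.05% being lower in MP. These shares are over genes of all levels: 249 of 11035 genes kept were called, but only 69 of the 8539 at 5 or more. Most calls were thus of genes under 5, as Pbx4 is, and among these the share called is higher than 2.26%. The other 4 members lay between -0.11 (Pbx2 locus) and 0.13 (Tgif2), and between 0.29 and 0.51 with libraries scaled to their medians.

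WT against EV differs in Prep1 reduction by its labels, and had the widest spread of ratios over all genes. Genotype, line of origin and infection cannot be told apart in this pair. No member was 2-fold apart, where 9.51% of genes kept were, and 8.31% in WT against P. The members stood between -0.29 (Pbx4) and 0.22 (Pbx2 locus) against EV, and between -0.07 (Tgif1) and 0.26 (Pbx2 locus) against P. With libraries scaled to their medians every member was negative, from -0.45 (Pbx4) to -0.09 (Tgif2) against EV and from -0.43 (Tgif1) to -0.03 (Pbx4) against P. M, P, MP and WT are all set against the same EV library, so their ratios are not independent of each other.

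**Figure D3:**
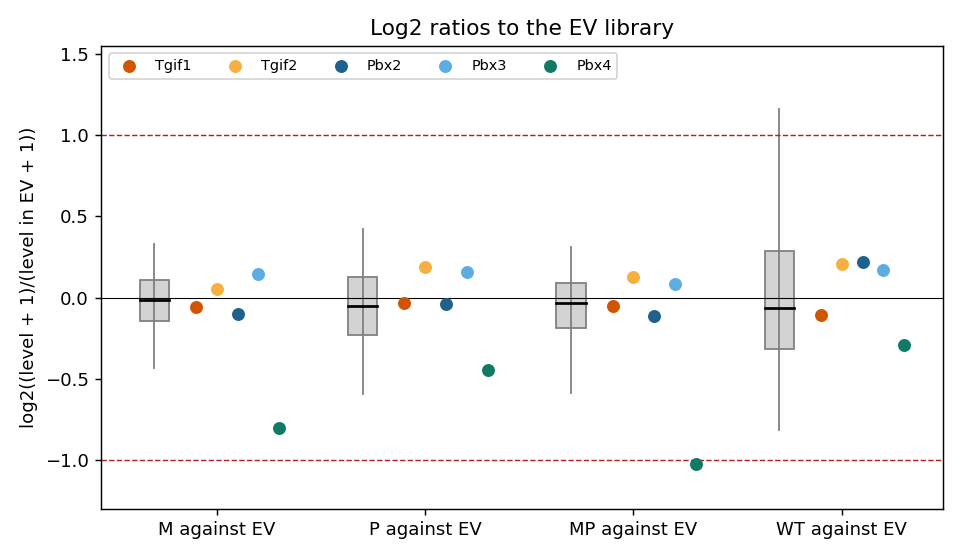
Log2((level + 1)/(level in EV + 1)) of the 5 genes in M, P, MP and WT, beside all genes kept in each comparison (box from the 25th to the 75th percentile, line at the median, whisker from the 5th to the 95th). Only Pbx4 in MP lies past the dashed 2-fold lines, and in M and MP it also lies below the whisker.

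The spread of each member over the 5 libraries was set beside that of all genes. Among 9444 genes at 5 scaled units or more in 1 library or more, the range of log2(level + 1) over the libraries had a median of 0.39 and quartiles of 0.26 and 0.59. The range was 0.10 for Tgif1, 0.17 for Pbx3, 0.21 for Tgif2 and 0.34 for the Pbx2 locus. Smaller ranges were found in 1.79% of these genes for Tgif1, 8.80% for Pbx3, 14.6% for Tgif2 and 40.7% for the Pbx2 locus. These shares are over genes of all levels from 5 upward, and Tgif1 lies where the scaled values are compressed, so its small range is not read as steadiness. Pbx4 had a range of 1.03, and 65.7% of the 2423 genes whose highest level was 1 to 5 had a smaller one.

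**Figure D4:**
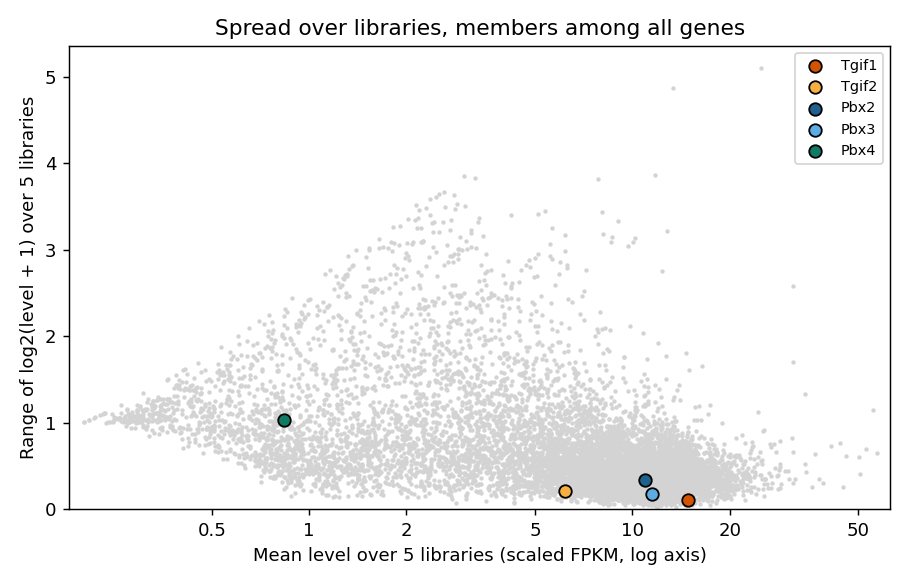
Range of log2(level + 1) over the 5 libraries against the mean scaled level (log axis), for genes at 1 scaled unit or more in 1 library or more (grey) and the 5 genes (coloured). Tgif1 at 0.10 lies at the lower edge of the cloud, and Pbx4 at 1.03 lies among low genes of wide range.

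Other TALE genes were read from a list that included Meis1 and Pknox1. Of 12 listed, 9 to 10 passed the filter in each comparison, and none was 2-fold apart in M against EV or in MP against P. Against EV, Pknox1 was lower in P (-1.03) and MP (-1.01), and Pknox2, the Prep2 gene, lower in MP (-1.08). In MP against M, Pknox1 (-1.44) and Pknox2 (-1.06) were lower. In WT, Pknox1 (1.93) and Meis3 (1.53) were higher and the Iroquois genes Irx1 (-2.49) and Irx2 (-1.61) lower. The same 4 genes were 2-fold apart in WT against P, at 2.95 for Pknox1, 1.21 for Meis3, -2.76 for Irx1 and -2.26 for Irx2. The list median against EV was -0.09 in M and 0.21 in P, with 0.04 in MP and 0.22 in WT, beside -0.01, -0.05, -0.04 and -0.07 over all genes kept. Among those that reached 1 scaled unit, the range over the libraries ran from 0.28 log2 units at Irx5 to 2.95 at Pknox1.

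**Figure D5:**
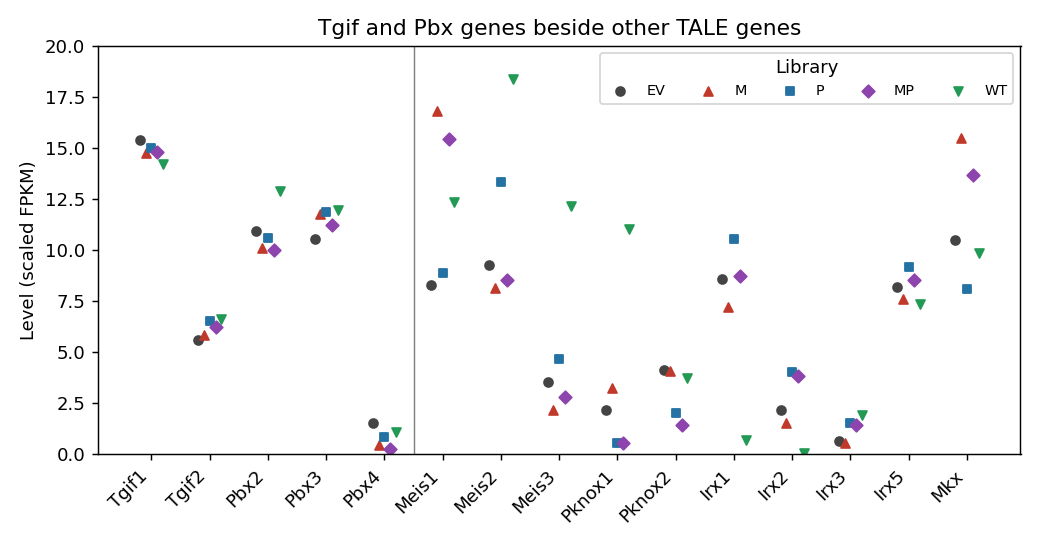
Scaled FPKM in each library for the 5 genes (left of the line) and for 10 other TALE genes, leaving out Irx4 and Irx6, which stayed under 1 scaled unit. The points of Tgif1, Tgif2 and Pbx3 lie close together, whereas Pknox1 runs from 0.554 in P to 11.0 in WT.

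Partners and targets of these proteins were read from lists. Of 30 Hox genes of paralogue groups 1 to 10, the Hox partners of Pbx, 15 had a locus of their own and 7 to 8 passed the filter. None was 2-fold apart in M, P or MP against EV (medians 0.07, 0.33 and -0.13), and in WT Hoxa2 was higher (1.11) and Hoxc9 lower (-1.57, median 0.28). In WT against P, Hoxc9 (-1.95) was 2-fold lower and no gene of the list higher (median -0.12). In MP against M and in MP against P none was 2-fold apart, with medians of -0.24 and -0.53 beside -0.01 and 0.04 over all genes. All 8 Pbx-binding cofactors passed and none was 2-fold apart in any of the 7 comparisons, with medians against EV of -0.02 in M and -0.13 in P, with -0.06 in MP and -0.21 in WT. Among these, Pbxip1, a protein that binds Pbx and blocks its contact with DNA, stood lowest in WT (-0.66).

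All 13 Smad genes and Tgif corepressors passed the filter, with medians against EV of 0.01 in M and -0.11 in P, with 0.04 in MP and -0.18 in WT. Smad6, an inhibitory Smad, was 2-fold higher in P (1.06) and WT (1.85), at 3.82 scaled units in EV, 4.95 in M and 9.05 in P, with 7.39 in MP and 16.4 in WT. No other gene of the list was 2-fold apart in any of the 7 comparisons. Of 17 retinoic acid pathway genes, 14 were measured and 9 to 10 passed. None was 2-fold apart in M, P or MP against EV (medians -0.08, 0.12 and -0.03). In WT the retinal reductase Dhrs3 (2.53) and the receptor Rarb (1.30) were higher and the retinoic acid hydroxylase Cyp26b1 (-1.44) and the binding protein Crabp1 (-1.07) lower, with a median of 0.19. In WT against P, Dhrs3 (2.68) and Rarb (1.07) were higher and Crabp2 (-1.59) and Cyp26b1 (-1.15) lower, with a median of -0.01.

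For each member the genes with the most similar profile over the 5 libraries were found among 9036 genes, those left of the 9444 that reached 5 scaled units in 1 library or more after leaving out receptor genes, small RNAs and genes with provisional names, by the root mean square difference of centred log2(level + 1). They were Nosip, Atg16l1 and Errfi1 for Tgif1 (0.00822 to 0.00901), Ankmy2, Mthfd2l and Cox10 for Tgif2 (0.00838 to 0.0159), Ciz1, Vav2 and Srgap2 for the Pbx2 locus (0.0200 to 0.0266), and Oard1, Ift88 and Mycbp for Pbx3 (0.00609 to 0.0170). For Pbx4 they were Hist2h4 (0.0256), S100a7a (0.125) and Nt5e (0.130), so its matches beyond Hist2h4 were much looser. Hist2h4 stood at 19.3 scaled units in EV, 10.3 in M and 13.9 in P, with 9.06 in MP and 15.0 in WT. This is the same order of libraries as for Pbx4, at a far higher level. Hist2h4 was picked as the nearest of 9036 profiles, so a shared order follows largely from that choice. The match is in values with the pseudocount of 1. Without it, Pbx4 in EV was 6.30 times that in MP, a wider difference than that of Hist2h4. Hist2h4 belongs to a family of near-identical histone genes, and the sources used here do not give the handling of reads shared between copies.

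As deposited, the members differed from EV mainly as the whole libraries did, except Pbx4 in M. Its log2 ratio to EV was then -0.30, whereas the median of genes at 5 scaled units or more was 1.42. The authors' deposited table for M against EV marked Tgif1 as changed (632 against 242 FPKM, q = 2.52e-05 by the authors' Cuffdiff test) and not Tgif2 (251 against 88.2, q = 0.107) or Pbx4 (19.5 against 24.2, q = 0.844). In the authors' deposited table for M the Pbx2 locus and Pbx3 had the test status FAIL. Loci with status OK that the authors' deposited table called higher in M made up 18%. The authors' deposited tables called all 5 members lower than EV in P, MP and WT, as they did 98.7%, 99.2% and 96.5% of loci with status OK.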

How the data were processed

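RNA was measured in 5 libraries of MEFs, 1 for each of EV, M, P, MP and WT, grouped by the sample labels. The authors deposited 4 tables of FPKM, each setting EV against 1 other library over 61082 loci, without coordinates. TopHat, Cufflinks, Cuffdiff and mm9 are named per the submitters' processing notes; versions, annotation, filters and library normalisation are not given in the sources used here. Deposited columns of p-value and q-value come from the authors' test of 1 library against 1, with q under 0.05 marked significant, per the file headers and values. Depth is unknown, so no counting interval was made.

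Each library was scaled so that its upper quartile was 10 over the 22338 single-gene loci that reached 1 FPKM in a library. For EV the column of the M table was used; the EV columns of the P, MP and WT tables differed from it by factors of 1.10, 0.972 and 1.12. Where a symbol had several loci (1154 symbols, no member), the highest was used. Joined loci were left out except that of Pbx2. A gene was kept if either library reached 1 scaled unit, and was called 2-fold apart where log2((level + 1)/(level + 1)) was at least 1 in size. Comparisons without EV were set across separately normalised tables.

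Named were the 5 members, Meis1 and Pknox1, per list and comparison up to 4 genes at least 2-fold apart (otherwise at most the furthest), and the 3 nearest profiles per member. The members and lists were chosen with earlier results of these data known; the receptor genes, Acta1, Tubb3 and Map2, and the histone profile shown were singled out after their values were seen. Alternatives were values as deposited, median scaling, quantile normalisation, a pseudocount of 0.1, a filter at 5 or none, the EV column of each table, and summed loci. The calculation was tested on simulated data. Python 3.11.15, pandas 2.3.3, numpy 2.4.6 and matplotlib 3.10.9 were used.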

Additional observations from a re-analysis of the deposited data

How the results depend on the processing

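With 1 library a group and unknown depth, no difference can be set against replicate error. No paired analysis was possible because each group holds 1 library and no test was made. Of 160 log2 ratios of members under alternatives that scale the libraries, 25 changed sign, 16 of 35 with median scaling and 9 of 35 with quantile normalisation, and each of these was under 2-fold. The 2-fold call of Pbx4 in MP against EV was absent with median scaling (0 members), quantile normalisation (0 members) and genes kept at 5 or more (0 members, Pbx4 being filtered out), and a pseudocount of 0.1 called Pbx4 in M against EV as well (1 member). As deposited, the median log2 ratio of genes at 5 or more was 1.42 for M and -3.73 for P, and -3.94 for MP and -3.70 for WT against EV, and -5.35 for MP against M. Members 2-fold apart then numbered 4 in M and 5 each in P, MP and WT against EV and in MP against M. Those that turned sign as deposited were, for M, the Pbx2 locus (1.33) and Tgif1 (1.38); for P, Pbx3 (-3.50) and Tgif2 (-3.38); for MP, Pbx3 (-3.82) and Tgif2 (-3.67); for WT, the Pbx2 locus (-3.37), Pbx3 (-3.42) and Tgif2 (-3.30); and for MP against M, Tgif1 (-5.37) and Tgif2 (-5.17). Median scaling moved the median ratio to 0.38 for MP and -0.41 for WT against EV. Genes 2-fold apart in MP against EV numbered 249, and 20827 as deposited, 555 with a pseudocount of 0.1 and 69 when kept at 5 or more; for M they numbered 103, 15486, 386 and 37, for P 279, 20826, 536 and 99, for WT 1109, 20473, 1746 and 661, for MP against M 164, 18533, 355 and 20, and for MP against P 109, 227, 363 and 66. For WT against P, 948 became 517 when kept at 5 or more.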
